A study of Mus musculus with 6 samples.

Results

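The 8 genes described here, Gc, Habp2, Slc17a1, Slc17a2, Slc17a3, Slc10a2, Slc4a4 and Hnf4a, are known from liver and kidney tubule and were measured in mammary tumor cells depleted of the GTPase-activating protein CdGAP. They were picked by symbol from a table of 41214 genes as plasma protein, urate transporter and bile acid transporter genes that were higher in the depleted cells, together with a transcription factor of liver and kidney. Their fold change was therefore known when they were chosen. It is given below as a description, with no test and no p-value. In 7 of the 8, every shCdGAP library stood above every shCON library, by 3.48-fold to 73.5-fold in mean level. Among all 13483 genes with enough reads to be tested, 21.8% were separated in the same direction. Nothing is read from this count, since the separation was part of the choice. Hnf4a went against the description: its levels overlapped between the groups, and it was among the most abundant transcripts in both.

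Hepatocytes secrete most plasma proteins, among them Gc, the vitamin D-binding protein, and Habp2, a serine protease that binds hyaluronan. The proximal tubule of the kidney takes back phosphate, urate, bicarbonate and other solutes from the filtrate, and transporters of the SLC17 and SLC4 families serve there. Slc10a2 takes up bile acids with sodium in the ileum, the kidney tubule and the bile ducts. Hnf4a, a nuclear receptor, binds promoters of many such genes in liver, kidney and gut.

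All 6 libraries were made from total RNA of mouse mammary tumor explant cells in culture, derived from NMuMG, a mammary epithelial line, and carrying Neu-NT, a constitutively active ErbB2 receptor. The depleted cells had the genotype Neu-NT shCdGAP (3 libraries, a short hairpin RNA against CdGAP, the product of Arhgap31), and the control cells the genotype Neu-NT shCON (3 libraries, a control hairpin). Both populations were grown with serum, insulin and the selection agent G418. The cell type label reads shCTL for all 6 libraries, so the genotype label separates the groups. The labels do not say whether a population was 1 clone or a pool, or whether replicates are separate cultures. All p-values below therefore reflect the variation among these 6 libraries alone, and that variation may be technical.

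Levels are FPKM, fragments per kilobase of transcript scaled to the depth of the library, as the authors deposited them, and reads are whole reads recovered from those values. The libraries held 22088774 to 25893195 reads in shCdGAP and 19176540 to 26824249 in shCON. Replicate 1 of shCdGAP stood apart: across genes its log2 levels correlated at 0.948 with replicate 2 and at 0.938 with replicate 3, and those of replicates 2 and 3 at 0.996 (genes do not count as replicates here). Arhgap31, the hairpin's target, had 0.149, 0.826 and 0.748 FPKM in replicates 1, 2 and 3 of shCdGAP, against 1.19, 1.30 and 1.35 FPKM in shCON. All 3 depleted libraries were below all 3 control libraries, with a ratio of means of 0.449. The test on log2(FPKM + 1), a scale that shrinks changes of weakly expressed genes, missed the threshold (log2 fold change -0.56, SE 0.19, adjusted p = 0.0836, limma). Values below are in the order of replicates 1, 2 and 3.

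The promoters of 3 of the 8 genes, Hnf4a, Slc4a4 and Slc17a3, held the E-box CACCTG, the core bound by Zeb and Snail repressors, and they are printed to show where it lies. RefSeq windows of 250 bases before to 50 bases after the annotated start (GRCm38.p6, the mm10 build) were found for all 8 genes, 11 windows in all. Each line runs 5′ to 3′ along the gene's strand. Capitals mark the E-box, which reads CAGGTG here because the match is on the opposite strand. The windows are chr2:163546905-163547204 for the second annotated start of Hnf4a, chr5:89027716-89028015 for the second of Slc4a4 and chr13:23839184-23839483 for Slc17a3, all on the plus strand.
Hnf4a: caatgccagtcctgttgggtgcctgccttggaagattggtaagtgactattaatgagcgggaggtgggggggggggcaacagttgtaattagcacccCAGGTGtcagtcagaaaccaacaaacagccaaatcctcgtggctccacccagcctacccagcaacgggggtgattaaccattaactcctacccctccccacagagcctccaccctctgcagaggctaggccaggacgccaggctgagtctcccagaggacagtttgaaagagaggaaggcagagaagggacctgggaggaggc
Slc4a4: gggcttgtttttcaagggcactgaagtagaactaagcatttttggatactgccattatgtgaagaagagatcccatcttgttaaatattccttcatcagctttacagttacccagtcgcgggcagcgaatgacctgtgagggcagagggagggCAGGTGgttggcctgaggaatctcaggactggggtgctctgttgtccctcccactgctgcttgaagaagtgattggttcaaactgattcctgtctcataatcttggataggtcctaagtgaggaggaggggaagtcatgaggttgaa
Slc17a3: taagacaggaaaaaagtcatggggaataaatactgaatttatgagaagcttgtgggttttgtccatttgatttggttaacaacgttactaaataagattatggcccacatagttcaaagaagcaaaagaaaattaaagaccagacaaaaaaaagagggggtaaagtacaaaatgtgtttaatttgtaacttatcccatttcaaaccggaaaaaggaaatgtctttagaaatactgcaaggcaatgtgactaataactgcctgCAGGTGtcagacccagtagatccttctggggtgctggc
The match began at position -153 from the start in Hnf4a, -97 in Slc4a4 and 13 in Slc17a3. It was found in 3 of the 11 windows, and in 6640 of all 32851 mouse promoter windows of this length (20.2%). That share is of windows, so it cannot be set beside the 3 of 8 genes, and nothing is read from the count. Both strands were searched. A match describes letters in a window and does not show that a factor binds there.

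Gc and Habp2, the secreted proteins, had the highest mean levels in shCdGAP among the 7 genes that were higher there, while in shCON Habp2 lay below Slc4a4 and Slc17a1. Gc (ENSMUSG00000035540, chr5:89417522-89457898 of mm10, minus strand) stood at 167, 272 and 241 FPKM in shCdGAP (6939, 10833 and 10861 reads), against 3.20, 14.0 and 12.4 FPKM in shCON (112, 700 and 600 reads). The groups lay far apart, and replicate 1 was the lowest library of each. Group means were 227 ± 53.9 FPKM in shCdGAP and 9.87 ± 5.84 FPKM in shCON (SD, n = 3 each), a ratio of 23.0. In shCdGAP the gene ranked above 98.2% to 99.0% of the genes with reads, and in shCON above 50.2% to 76.2%. The ratio was 52.3 between the libraries numbered 1, and 19.4 and 19.5 between those numbered 2 and 3. As these are bulk samples, more cells that express a gene and more RNA per cell cannot be told apart.

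Habp2 (ENSMUSG00000025075, chr19:56287137-56320822, plus strand) had the largest ratio of the 8. It reached 67.8, 47.4 and 42.5 FPKM in shCdGAP (4948, 3322 and 3372 reads), against 0.503, 0.683 and 0.960 FPKM in shCON (31, 60 and 82 reads). Means were 52.6 ± 13.4 FPKM in shCdGAP and 0.715 ± 0.230 FPKM in shCON (SD, n = 3 each), a ratio of 73.5, and 54.7 without both libraries numbered 1. Unlike Gc, it was highest in replicate 1 of shCdGAP, while replicate 1 was again the lowest control. Habp2 shares 268 of its 3193 exon bases with Nrap, a muscle gene on the other strand. Nrap itself had 1, 1 and 0 reads in shCdGAP and 0 in each shCON library.

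Slc17a2, Slc17a3 and Slc17a1 lie in this order, head to tail on the plus strand of chromosome 13, with gaps of 14.3 and 7.03 kb between their bodies. They encode organic anion and sodium phosphate transporters, and Slc17a1 and Slc17a3 are known to carry urate. Slc17a1 (ENSMUSG00000021335, chr13:23867750-23895730) was by far the most abundant, at 27.3, 15.2 and 20.3 FPKM in shCdGAP (1480, 793 and 1197 reads), against 1.42, 1.47 and 2.13 FPKM in shCON (65, 96 and 135 reads). Its means were 20.9 ± 6.05 FPKM in shCdGAP and 1.67 ± 0.395 FPKM in shCON (SD, n = 3 each), a ratio of 12.5. The lowest depleted library was still well above the highest control library. No 50-base stretch of the transcripts of these 3 genes occurred in a transcript of another gene.

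Slc17a3 (ENSMUSG00000036083, chr13:23839434-23860716) stayed below 1 FPKM throughout, at 0.772, 0.606 and 0.960 FPKM in shCdGAP and 0.0356, 0.050 and 0.0343 FPKM in shCON. These values rest on 77, 58 and 104 reads in shCdGAP and on 3, 6 and 4 reads in shCON, and the means, 0.779 ± 0.177 FPKM in shCdGAP and 0.0400 ± 0.00873 FPKM in shCON (SD, n = 3 each), had a ratio of 19.5. Slc17a2 (ENSMUSG00000036110, chr13:23806993-23825180) was lower still, at 0.242, 0.161 and 0.176 FPKM in shCdGAP (33, 21 and 26 reads), against 0.00869, 0.0244 and 0.0126 FPKM in shCON (1, 4 and 2 reads). Its means were 0.193 ± 0.0435 FPKM in shCdGAP and 0.0152 ± 0.00820 FPKM in shCON (SD, n = 3 each). Their ratio of 12.7 rests on 7 control reads in all, and ran from 6.58 to 27.9 across the 3 replicate numbers. Both groups were separated for each gene, at levels where a few reads decide the control mean.

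The other pair of transporters carries bile acids and bicarbonate. Slc10a2 (ENSMUSG00000023073, chr8:5083219-5105351, minus strand), the sodium-dependent bile acid transporter, stood at 0.752, 2.29 and 2.59 FPKM in shCdGAP (28, 82 and 105 reads), against 0.222, 0.112 and 0.161 FPKM in shCON (7, 5 and 7 reads). Replicate 1 of shCdGAP was the lowest of its group and came closest to the controls. The means were 1.88 ± 0.989 FPKM in shCdGAP and 0.165 ± 0.0556 FPKM in shCON (SD, n = 3 each), a ratio of 11.4. Between the libraries numbered 1 the ratio was 3.38, and between those numbered 2 and 3 it was 20.5 and 16.2. Of the 50-base stretches of its transcripts 1.24% occurred in transcripts of other genes.

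Slc4a4 (ENSMUSG00000060961, chr5:88886818-89239653, plus strand), a sodium bicarbonate cotransporter of the basolateral tubule membrane, was already well expressed in the controls. It stood at 19.3, 12.9 and 12.1 FPKM in shCdGAP (4780, 3067 and 3247 reads), against 4.55, 4.26 and 3.94 FPKM in shCON (950, 1266 and 1140 reads). Its means were 14.8 ± 3.96 FPKM in shCdGAP and 4.25 ± 0.304 FPKM in shCON (SD, n = 3 each), a ratio of 3.48, the smallest of the 7. Slc4a4 and Gc are neighbours on chromosome 5, 178 kb apart and on opposite strands.

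Hnf4a (ENSMUSG00000017950, chr2:163506808-163572910, plus strand) stood at 85.3, 53.8 and 54.0 FPKM in shCdGAP (9419, 5699 and 6479 reads), against 56.1, 60.5 and 62.7 FPKM in shCON (5233, 8035 and 8103 reads). Replicate 1 of shCdGAP was the highest of the 6 libraries, and replicates 2 and 3 were below all controls. The means were 64.4 ± 18.1 FPKM in shCdGAP and 59.8 ± 3.37 FPKM in shCON (SD, n = 3 each), a ratio of 1.08. Without replicate 1 of shCdGAP the ratio was 0.902, and without both libraries numbered 1 it was 0.875. The gene ranked above 92.7% to 96.2% of the genes with reads in shCdGAP and above 94.1% to 94.8% in shCON. Hnf4aos, an antisense gene within its body that shares no exon bases with it, had 7, 2 and 2 reads in shCdGAP and 2, 4 and 3 reads in shCON. Hnf4a was therefore expressed at a high level in depleted and control cells alike, by rank, and the depleted cells did not have more of it outside replicate 1.

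**Figure D1:**
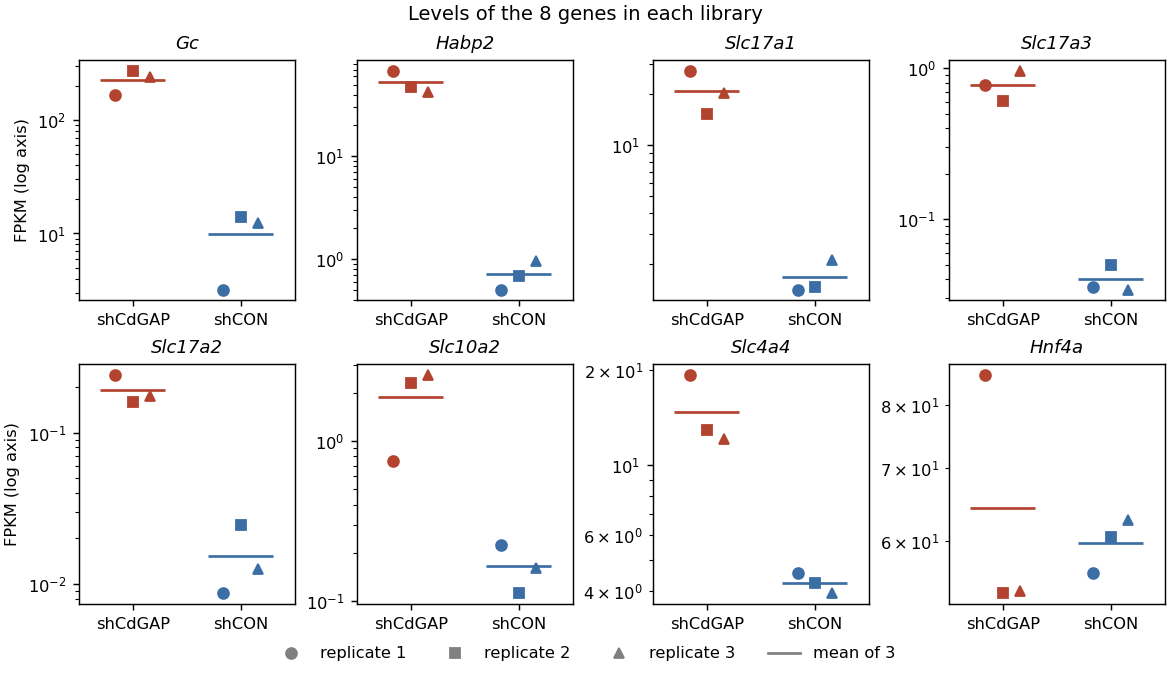
FPKM of each of the 8 genes in each library, on log axes that differ between panels, with shCdGAP left of shCON, symbols for replicate numbers and a line at each group's mean of 3. In 7 panels the groups are separated, from 3.48-fold in Slc4a4 to 73.5-fold in Habp2 (ratio of means), and in the Hnf4a panel they overlap, with replicate 1 of shCdGAP at 85.3 FPKM.

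The order of levels changed with the group. In shCdGAP it was Gc, Hnf4a, Habp2, Slc17a1, Slc4a4, Slc10a2, Slc17a3 and Slc17a2, from the highest mean FPKM to the lowest. The ranges of Hnf4a and Habp2, of Slc17a1 and Slc4a4, and of Slc10a2 and Slc17a3 overlapped, so the order within these pairs is not resolved. In shCON, Hnf4a led, followed by Gc and Slc4a4, whose ranges overlapped, and then by Slc17a1, Habp2, Slc10a2, Slc17a3 and Slc17a2, each apart from the next. Within the depleted group, Habp2, Slc17a1, Slc17a2, Slc4a4 and Hnf4a were highest in replicate 1, whereas Gc and Slc10a2 were lowest there.

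On the scale of log2(FPKM + 1), which shrinks the changes of weakly expressed genes, the fold changes were 4.94 for Habp2, 4.56 for Gc, 3.01 for Slc17a1, 1.56 for Slc4a4, 1.24 for Slc10a2, 0.77 for Slc17a3, 0.23 for Slc17a2 and 0.07 for Hnf4a. Their median was 1.40, beside -0.01 over all 13483 tested genes. Nothing is read from that, since the 8 genes were chosen with their fold changes known. In the authors' deposited table the log2 fold changes were 5.88 for Habp2 (SE 0.30), 3.97 for Gc (SE 0.45), 3.78 for Slc17a3 (SE 0.43) and 3.47 for Slc17a1 (SE 0.29). The authors' deposited table further gave 2.94 for Slc10a2 (SE 0.51), 2.92 for Slc17a2 (SE 0.52), 1.75 for Slc4a4 (SE 0.23) and 0.10 for Hnf4a (SE 0.23). All 8 genes passed the filter on low reads, Slc17a2, Slc17a3 and Slc10a2 through the shCdGAP libraries alone.

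Other genes were tested with limma across all 13483 genes, of which 2838, or 21.0%, passed the adjusted threshold of 0.05. Of all tested genes 9.92% were higher in shCdGAP and 11.1% lower. The lists that follow were made with earlier results of these data in view, so each count is a description beside that background. Without replicate 1 of shCdGAP, 5373 genes passed. Without replicate 2 of shCdGAP, 1476 did, and without shCON replicate 1, 2 or 3 there were 1724, 1237 and 1332.

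Among transcription factors of liver and kidney, Foxa2, Gata6 and Pax2 rose while Nr1h4 and Foxa1 fell. Of 32 factors, 21 were tested, of which 4 rose, 3 fell and 14 did not pass, with a median log2 fold change of 0.17. Foxa2, a forkhead factor of liver and other endoderm, stood at 37.6, 33.4 and 31.0 FPKM in shCdGAP, above its 18.4, 20.4 and 22.1 FPKM in shCON (log2 fold change 0.71, adjusted p = 0.0093, limma). Its call was lost without shCON replicate 2 (adjusted p = 0.0524). Foxa1, the forkhead factor of luminal mammary cells and liver, went the other way, at 1.78, 2.49 and 2.44 FPKM in shCdGAP against 12.3, 9.27 and 8.76 FPKM in shCON (log2 fold change -1.77, adjusted p = 0.0012, limma). The third of the family, Foxa3, did not pass: its 6.67, 2.19 and 1.74 FPKM in shCdGAP were all above the 0.736, 0.678 and 0.605 FPKM of shCON, with replicate 1 far above the other two (adjusted p = 0.0640, limma). It was named after its values were seen.

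Gata6, a zinc finger factor of endoderm, stood at 12.04, 12.1 and 12.4 FPKM in shCdGAP, above its 5.66, 6.15 and 5.75 FPKM in shCON (log2 fold change 0.94, adjusted p = 0.0012, limma). Pax2, a paired-box factor of the developing kidney, reached 14.5, 9.79 and 7.58 FPKM in shCdGAP against 4.31, 4.29 and 4.33 FPKM in shCON (log2 fold change 1.09, adjusted p = 0.0182, limma). This call was lost when shCdGAP replicate 2 or any 1 of the shCON libraries was left out (adjusted p of 0.0616 to 0.0762). Nr1h4, the bile acid receptor FXR, fell to 4.04, 4.19 and 4.18 FPKM in shCdGAP, against 16.1, 14.6 and 14.6 FPKM in shCON (log2 fold change -1.65, adjusted p = 0.0002, limma). The third factor that fell was Rxra, the partner of many nuclear receptors, at -0.40 (adjusted p = 0.0387, limma), a call lost when the replicate number was added as a block (adjusted p = 0.0518) and when any 1 of the shCON libraries was left out. Lhx1 and Emx2, factors of the early kidney, had no reads. Without shCON replicate 2, 2 of the 21 factors rose and 2 fell.

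**Figure D2:**
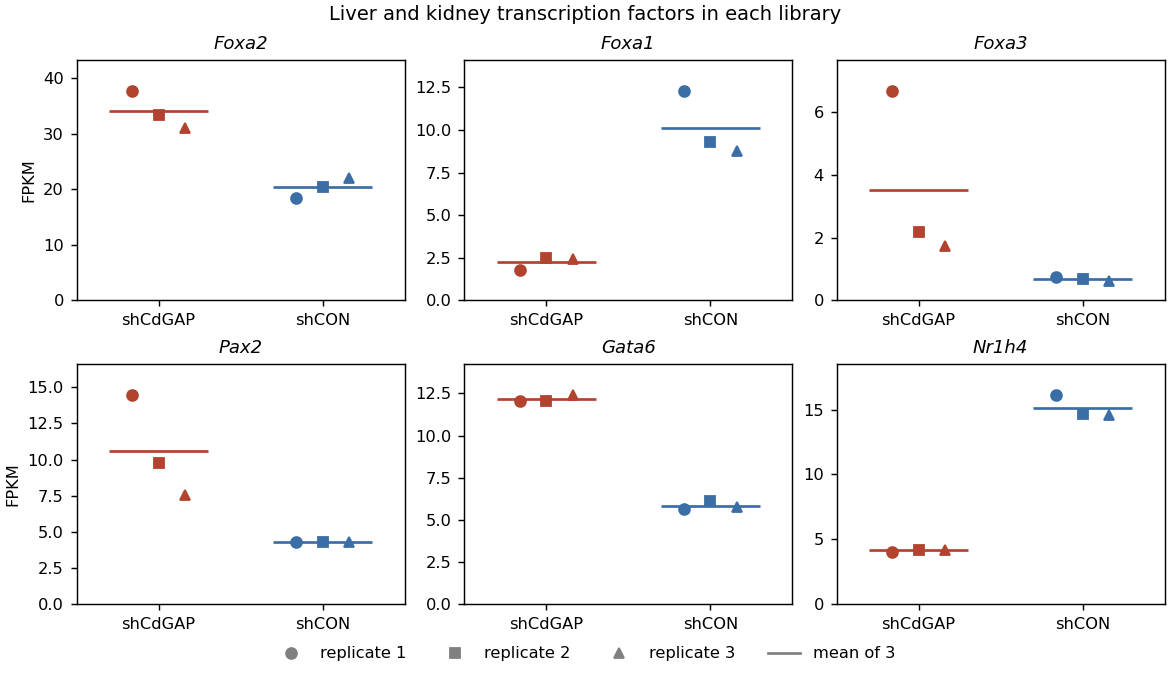
FPKM of 6 liver and kidney transcription factors in each library, on linear axes from 0, with shCdGAP left of shCON, symbols for replicate numbers and a line at each group's mean of 3. Foxa2, Pax2 and Gata6 are higher in every shCdGAP library, Foxa1 and Nr1h4 lower, and Foxa3 (not past the test) has its highest value, 6.67 FPKM, in replicate 1 of shCdGAP.

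Hepatocyte plasma protein genes were called more often than the background, mostly upward. Of 54 genes besides Gc and Habp2, 28 were tested, of which 12 rose (42.9%), 4 fell and 12 did not pass (57.1% called), with a median log2 fold change of 0.64. The albumin family, to which Gc belongs, was split: Alb and Afm rose and Afp fell. Alb, encoding albumin, stood at 6.61, 7.49 and 3.05 FPKM in shCdGAP and 0.329, 0.463 and 0.274 FPKM in shCON (log2 fold change 2.24, adjusted p = 0.0039, limma). Afm, encoding the vitamin E-binding protein afamin, stood at 1.47, 1.74 and 1.38 FPKM in shCdGAP and 0.0511, 0.120 and 0.111 FPKM in shCON (log2 fold change 1.21, adjusted p = 0.00035, limma). Afp, encoding alpha-fetoprotein of fetal liver, fell to 0.566, 0.808 and 1.12 FPKM in shCdGAP, against 16.1, 17.0 and 16.2 FPKM in shCON (log2 fold change -3.26, adjusted p = 9.1e-05, limma). Alb, Afm, Afp and Gc therefore did not share a direction, although the groups were separated for each.

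Rbp4, Hp and Agt, of the same list, rose as well. Rbp4, which carries retinol, reached 248, 211 and 197 FPKM in shCdGAP, against 106, 109 and 110 FPKM in shCON (log2 fold change 1.00, adjusted p = 0.0026, limma). Hp, encoding haptoglobin, stood at 3.03, 7.77 and 6.62 FPKM in shCdGAP and 0.193, 0.406 and 0.278 FPKM in shCON (log2 fold change 2.32, adjusted p = 0.0039, limma). Agt, encoding angiotensinogen, stood at 10.3, 13.9 and 6.60 FPKM in shCdGAP and 0.0548, 1.00 and 0.593 FPKM in shCON (log2 fold change 2.86, adjusted p = 0.0027, limma). These 6 named plasma protein genes passed in all alternatives that tested them. Apoa4, Ahsg, F9, Klkb1, Plg, Serpina6, Vtn and Hrg had no reads. Without shCON replicate 1, shCON replicate 2 or shCdGAP replicate 2, 7 of the list rose and 3 fell.

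Genes on the proximal tubule list also passed more often than the background, in both directions. The list holds genes that are not particular to this tubule, such as Vcam1, so its count does not stand for the proximal tubule alone. Of 64 genes on the list 63 were in the table and 25 were tested, of which 8 rose, 4 fell and 13 did not pass (48.0% called), with a median log2 fold change of 0.42. Cdh16, the kidney-specific cadherin, stood at 85.0, 61.9 and 98.9 FPKM in shCdGAP and 3.26, 3.30 and 2.88 FPKM in shCON (log2 fold change 4.30, adjusted p = 9.1e-05, limma). Vcam1, an adhesion molecule of endothelium and of injured tubule, stood at 12.03, 13.6 and 16.2 FPKM in shCdGAP and 1.16, 1.37 and 1.08 FPKM in shCON (log2 fold change 2.76, adjusted p = 0.0001, limma). Car2, a carbonic anhydrase that works with Slc4a4 in bicarbonate handling, stood at 31.6, 25.7 and 25.9 FPKM in shCdGAP and 11.9, 8.23 and 8.23 FPKM in shCON (log2 fold change 1.47, adjusted p = 0.0027, limma).

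Slc2a9, a urate transporter like Slc17a1 and Slc17a3, fell. It stood at 2.48, 1.86 and 1.96 FPKM in shCdGAP, against 6.997, 8.50 and 8.35 FPKM in shCON (log2 fold change -1.53, adjusted p = 0.0008, limma). Car12, a membrane-bound carbonic anhydrase, fell to 0.0289, 0.0201 and 0 FPKM in shCdGAP, against 0.388, 0.384 and 0.428 FPKM in shCON (log2 fold change -0.46, adjusted p = 0.0013, limma). The 5 tubule genes named here passed in all alternatives that tested them. Without shCON replicate 2, 6 of the list rose and 2 fell, and without shCON replicate 3, 5 rose and 3 fell.

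Bile acid genes were called at about the background rate. Slc10a2 itself is not counted among them. Of 36 genes on the list 35 were in the table and 13 were tested, of which 1 rose, 2 fell and 10 did not pass (23.1% called), with a median log2 fold change of -0.05. The 2 that fell were Nr1h4, given above, and Abcb11, the bile salt export pump of hepatocytes. Abcb11 stood at 0.0085, 0 and 0.0313 FPKM in shCdGAP and 0.734, 0.692 and 0.588 FPKM in shCON (log2 fold change -0.72, adjusted p = 0.0006, limma). The gene that rose was Hsd17b4, an enzyme of peroxisomal side-chain oxidation, at 36.9, 26.2 and 26.3 FPKM in shCdGAP and 19.3, 16.9 and 17.2 FPKM in shCON (log2 fold change 0.69, adjusted p = 0.0278, limma). That call was lost when shCdGAP replicate 2 or any 1 of the shCON libraries was left out (adjusted p of 0.0584 to 0.115). Without replicate 1 of shCdGAP, 2 of the list rose and 6 fell. Akr1c6, Fgfr4, Slco1a1 and Slco1b2 had no reads.

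**Figure D3:**
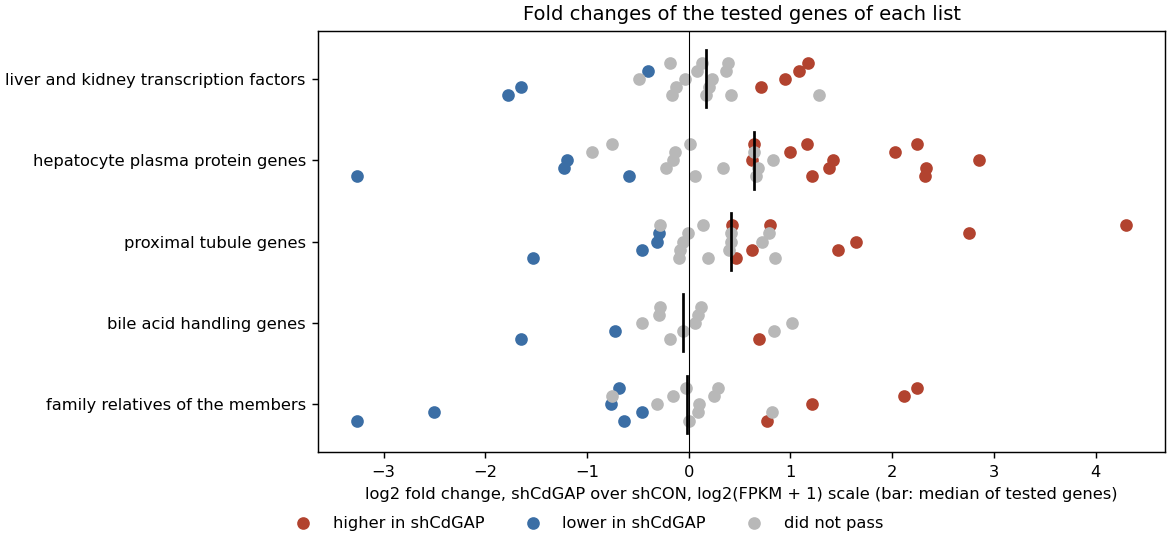
Fitted log2 fold change, shCdGAP over shCON on the log2(FPKM + 1) scale, of every tested gene of the 5 lists, coloured by the limma call, with a bar at each list's median. Plasma protein and proximal tubule genes have medians of 0.64 and 0.42 with called genes on both sides, and bile acid genes and family relatives have medians of -0.05 and -0.01.

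Relatives within the same gene families changed in both directions. Of 29 relatives 20 were tested, of which 4 rose, 6 fell and 10 did not pass (50% called), with a median log2 fold change of -0.01. Alb, Afm, Afp, Hgfac and F12 are also on the plasma protein list, so the calls on Alb, Afm and Afp are counted in both. The call on Slc17a4 is counted again among the neighbours below. In the SLC17 family, the vesicular glutamate transporters Slc17a6 and Slc17a8 fell. Slc17a6 stood at 0.0304, 0.116 and 0.0839 FPKM in shCdGAP and 4.15, 5.67 and 5.57 FPKM in shCON (log2 fold change -2.50, adjusted p = 0.0002, limma). Slc17a8 stood at 0.0741, 0.0579 and 0.0341 FPKM in shCdGAP and 0.867, 0.863 and 0.649 FPKM in shCON (log2 fold change -0.76, adjusted p = 0.0011, limma). Slc17a4, an anion transporter of intestine, rose: it had 465, 134 and 129 reads in shCdGAP, or 7.70, 2.31 and 1.97 FPKM, against 0, 2 and 1 reads in shCON (log2 fold change 2.12, SE 0.40, adjusted p = 0.0157, limma). The call was lost when any 1 of the shCON libraries was left out (adjusted p of 0.0647 to 0.0656), and replicate 1 of shCdGAP was the highest. Slc17a5, the lysosomal sialic acid transporter, stood at 25.7, 9.62 and 8.54 FPKM in shCdGAP and 7.71, 6.42 and 6.55 FPKM in shCON and did not pass.

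In the SLC4 family, Slc4a3 and Slc4a8 fell by 0.46 and 0.68 on the log2(FPKM + 1) scale (adjusted p of 0.0079 and 0.0290, limma). The call on Slc4a8 was lost when the replicate number was added as a block (adjusted p = 0.0670) and when any 1 of the shCON libraries was left out. Slc4a2, a chloride bicarbonate exchanger, averaged 34.2 ± 2.71 FPKM in shCdGAP and 27.9 ± 3.15 FPKM in shCON (SD, n = 3 each), and Slc4a7 stood at 16.6, 19.2 and 20.4 FPKM in shCdGAP and 22.4, 16.1 and 14.7 FPKM in shCON. Neither passed. Of the SLC10 family, Slc10a3 and Slc10a7 were tested and did not pass, at log2 fold changes of -0.31 and 0.25. Of the kringle serine proteases related to Habp2, Plau, encoding urokinase, rose, at 0.989, 1.19 and 0.842 FPKM in shCdGAP and 0.265, 0.140 and 0.128 FPKM in shCON (log2 fold change 0.77, adjusted p = 0.0028, limma). Plat, encoding tissue plasminogen activator, fell by 0.64 (adjusted p = 0.0203, limma), a call lost when any 1 of the shCON libraries was left out. Hgfac, which activates hepatocyte growth factor, stood at 24.3, 16.2 and 14.1 FPKM in shCdGAP and 23.6, 34.9 and 35.1 FPKM in shCON and did not pass (adjusted p = 0.0803, limma).

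Genes that lie beside the 8 were called at about the background rate. Within 500 kb were 124 genes of the table, of which 41 were tested, and 4 rose and 4 fell (19.5% called), with a median log2 fold change of -0.05. On chromosome 13, Slc17a4 (chr13:23895890-23915009, minus strand) faces Slc17a1 end to end with 0.160 kb between the gene bodies, and Lrrc16a, an actin capping regulator 117 kb from the nearest of the 3 genes, rose as well. Lrrc16a stood at 6.81, 9.83 and 9.20 FPKM in shCdGAP and 4.67, 4.64 and 4.54 FPKM in shCON (log2 fold change 0.76, adjusted p = 0.0154, limma), a call lost when shCdGAP replicate 2 or any 1 of the shCON libraries was left out. The other tested genes around this cluster did not pass.

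Around Hnf4a, 16 genes were tested, of which 4 fell and 0 rose by limma, 7 and 1 at an unadjusted p under 0.05, and 6 and 0 by limma-voom. Over all 13483 tested genes, 1809 fell and 1171 rose by limma-voom. The share of all genes at an unadjusted p under 0.05 is not given, so nothing is read from the unadjusted counts in this paragraph. Ada, encoding adenosine deaminase, lies 154 kb away and stood at 4.06, 6.83 and 7.52 FPKM in shCdGAP and 19.0, 21.2 and 21.6 FPKM in shCON (log2 fold change -1.63, adjusted p = 0.0040, limma). Sgk2, a kinase of kidney and liver 493 kb away, fell by 0.55 on the log2(FPKM + 1) scale (adjusted p = 0.0093, limma). Its levels were under 1 FPKM, with means of 0.0672 FPKM in shCdGAP and 0.563 FPKM in shCON, a ratio of 0.119. Tomm34 fell by 0.54 and Fitm2 by 0.64 (adjusted p of 0.0201 and 0.0395, limma), at higher levels. Their ratios of means were 0.671 and 0.619. Near Habp2, Ccdc186 and Tcf7l2 rose by 0.40 and 0.43 (adjusted p of 0.0314 and 0.0361, limma), and both calls were lost when the replicate number was added as a block (adjusted p of 0.0528 and 0.0736) and under library size scaling (0.0533 and 0.0530). Of the 5 tested genes near Slc4a4, 0 passed by limma or limma-voom, and 0 at an unadjusted p under 0.05. Of the 3 near Slc10a2, 0 passed by limma or limma-voom, and 1 was lower at an unadjusted p under 0.05. No gene within 500 kb of Gc other than Slc4a4 had enough reads to be tested. Of the 8 called neighbours, Ada and Sgk2 kept the call in all alternatives that tested them. Without replicate 1 of shCdGAP, 9 neighbours rose and 10 fell. Without shCdGAP replicate 2, 1 rose and 2 fell, without shCON replicate 1, 0 rose and 4 fell, and without shCON replicate 2 or 3, 0 rose and 2 fell.

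**Figure D4:**
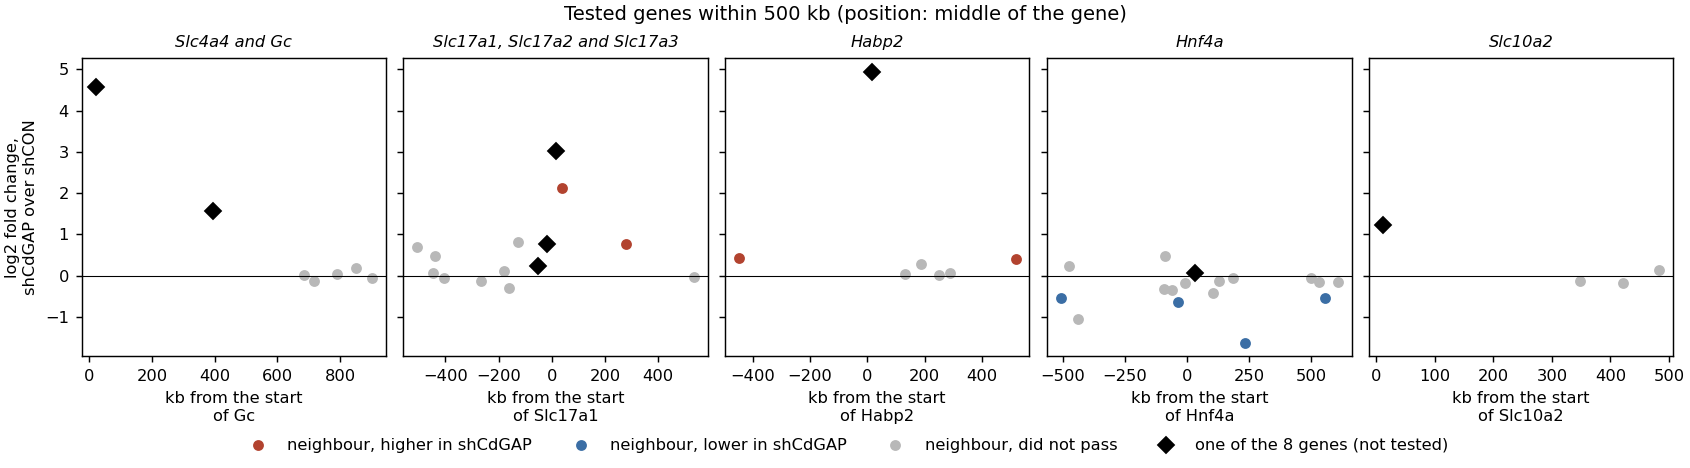
Log2 fold change, shCdGAP over shCON on the log2(FPKM + 1) scale, of the 8 genes (black) and of tested genes within 500 kb, against the distance in kb of each gene's middle from the start of the gene named under the panel. Gc, Habp2 and Slc17a1 stand at 4.56, 4.94 and 3.01, and apart from Slc17a4 at 2.12 the neighbours lie between -1.63 and 0.80.

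The 6 libraries did not carry the defining markers of hepatocytes or of kidney tubule as a set. Of 10 proximal tubule markers, Slc5a12, Miox and Kap were at 0 reads in all libraries, Lrp2, Slc34a1, Slc5a2, Slc22a6, Slc22a8 and Slc13a3 had at most 3 reads in any library, and Cubn, the endocytic receptor cubilin, fell. The summed level of the 10 was 0.231 to 0.254 FPKM in shCdGAP and 0.522 to 0.599 FPKM in shCON. That difference was Cubn: without it the sum was 0.0115 to 0.0271 FPKM in shCdGAP and 0.00448 to 0.0386 FPKM in shCON, overlapping. Of 12 hepatocyte markers, Ahsg was at 0, Tat, Cyp2e1 and Tdo2 had at most 3 reads in any library, and Alb, Ttr and Fgb rose. Their sum was 14.95 to 39.97 FPKM in shCdGAP and 18.3 to 25.3 FPKM in shCON, overlapping. Apob, the main protein of liver lipoproteins, made up most of the shCON sum and did not pass, at 15.4, 7.82 and 8.83 FPKM in shCdGAP and 17.0, 23.6 and 22.2 FPKM in shCON (adjusted p = 0.0502, limma). Without Apob the sum was 6.12 to 24.5 FPKM in shCdGAP and 1.28 to 1.83 FPKM in shCON, and the groups did not overlap. In shCdGAP that sum was mostly Alb, Ttr and Fgb, the genes that rose, so it does not speak for the other markers. Fga was higher in every shCdGAP library (means of 0.647 and 0.0154 FPKM) and Apoa1 lower (0.257 and 0.379 FPKM). Neither passed. The calls on Ttr and Fgb were lost when the replicate number was added as a block (adjusted p of 0.0573 and 0.0539, limma). The sum of 10 markers of the loop, distal tubule and collecting duct was 0.413 to 0.574 FPKM in shCdGAP and 0.558 to 0.596 FPKM in shCON, with Umod and Calb1 at 0. Of the 2 tested, Slc12a1 fell (means of 0.0551 and 0.223 FPKM, adjusted p = 0.0435, limma) and Scnn1a did not pass. Slc26a4 had 10, 8 and 14 reads in shCdGAP and 0 in each shCON library, and was not tested.

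Of 10 enterocyte markers, Cdx1, Sis and Apoa4 were at 0. Vil1, encoding the brush border protein villin of gut and tubule, stood at 63.4, 46.4 and 38.1 FPKM in shCdGAP and 8.91, 16.8 and 16.9 FPKM in shCON (log2 fold change 1.75, adjusted p = 0.0105, limma), while Cdh17, the liver-intestine cadherin, fell by 0.88 (adjusted p = 0.0075, limma). The sum of the 10 was 92.9 to 111 FPKM in shCdGAP and 87.8 to 115 FPKM in shCON, and without Cdh17, its most abundant gene, 39.8 to 67.5 FPKM in shCdGAP and 10.7 to 19.0 FPKM in shCON. Vil1 made up most of the sum without Cdh17. Lgals4 was higher in shCdGAP (means of 2.57 and 1.02 FPKM) and did not pass. Fabp2 (0.0907 and 0.475 FPKM) and Alpi (0.0130 and 0.239 FPKM) were lower in every shCdGAP library and were not tested. Of 10 mammary epithelial markers, Krt8 and Krt18, keratins of simple epithelia in general, made up most of a sum of 4002 to 6555 FPKM in shCdGAP and 3624 to 5070 FPKM in shCON. Krt14 and Elf5 had at most 3 reads in any library, Krt5, Epcam and Csn3 fell, with Epcam at 0 in the shCdGAP libraries, and Cdh1 rose. Summed fibroblast, leukocyte and endothelial markers reached at most 1.10, 8.69 and 0.0295 FPKM in shCdGAP and 0.947, 17.4 and 0.265 FPKM in shCON, the leukocyte sum being mostly Cd68. Whether any of these markers has a part in the levels of the 8 genes was not tested.

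The genes whose profile over the 6 libraries was most like that of Gc were Foxj1, C3, Habp2, Cdh16 and a gene listed only as ENSMUSG00000097758. Likeness was the root mean square distance between centred log2(FPKM + 1) profiles, and these were at 0.351, 0.414, 0.672, 0.709 and 0.745. Foxj1, the factor of motile cilia, stood at 34.9, 67.4 and 55.9 FPKM in shCdGAP and 0.493, 1.44 and 1.58 FPKM in shCON, and like Gc was lowest in replicate 1 of each group. C3, the complement component, was likewise lowest in replicate 1 of each group, at 29.0, 58.4 and 62.4 FPKM in shCdGAP and 0.141, 0.848 and 1.02 FPKM in shCON. Most like Hnf4a were Ccdc53, Gm12396, Apeh, Scp2 and Lcp1, at distances of 0.0223 to 0.0411. Scp2, a sterol carrier that is also on the bile acid list, stood at 32.3, 21.3 and 20.3 FPKM in shCdGAP and 21.3, 23.4 and 22.9 FPKM in shCON, with the same high replicate 1 of shCdGAP.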

How the data were processed

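Total RNA of mouse mammary tumor explant cells was sequenced in 3 shCdGAP and 3 shCON libraries, grouped and numbered by their titles and checked against the genotype labels. The submitters' processing notes name Trimmomatic, TopHat2 2.0.13, featureCounts, DESeq2 and the build mm10. Annotation release and strand handling were not given in the sources used here. Reads of genes that overlap on opposite strands, such as Habp2 and Nrap, therefore cannot be separated. The single table deposited by the authors lists 41214 genes with an FPKM value in each library. Per the file headers, it adds the authors' DESeq2 columns, which are a mean signal (mean of size-factor-scaled reads), a log2 fold change and its SE, a test score, a p-value and an adjusted p-value. Whole reads came back for 100% of the deposited FPKM values when these were rescaled by the mean signal (tolerance 1e-06), and gave a depth of 19176540 to 26824249 reads per library. No column of other samples was present.

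The 13483 tested genes had 10 or more depth-scaled reads in 3 or more libraries, and 15 or more in total. They were tested 2-sided with limma 3.58.1 in R 4.3.3 (trend, robust; group as the term) on log2(FPKM + 1), and p-values were adjusted over them by the Benjamini-Hochberg method, with a threshold of 0.05. The scripts were tested on simulated data. Positions are from GENCODE M21 on the same build (40340 identifiers matched), and promoters from RefSeq. The 8 genes and all lists were chosen with earlier results of these data known. Named genes are the 8, Arhgap31, up to 6 called genes per list with the smallest p, family relatives with a mean of at least 1 FPKM, called neighbours, marker genes, and the 5 profiles nearest to Gc and to Hnf4a. Other names are marked as chosen after their values were seen. Some results of these lists are not reported here.

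Deviations from the group mean, compared across genes, correlated at 0.43, 0.39 and 0.34 between libraries that share number 1, 2 or 3. On this ground a fit with the numbers as pairs was run as an alternative, while the main fit left them out. This pairing is read from the data, not from the labels, and shCdGAP replicate 2 correlated at 0.35 with shCON replicate 3. Alternatives were the replicate number as a block, a pseudocount of 0.1 FPKM, no filter on low genes, a mean of at least 5 CPM, library size or trimmed-mean scaling, limma-voom on recovered reads, and fits that left out each library or both numbered 1. Python 3.11.15 with numpy 2.4.6, pandas 2.3.3 and matplotlib 3.10.9 made tables and figures.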

Additional observations from a re-analysis of the deposited data

How the results depend on the processing

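Hnf4a was the gene of the 8 whose direction turned: its log2 fold change of 0.07 became -0.15 when shCdGAP replicate 1 was left out and -0.19 when both libraries numbered 1 were. The other 7 stayed higher in shCdGAP in all alternatives for which their fold changes were taken. Those without a filter on low genes, with a mean of at least 5 CPM and by limma-voom were not among these. Leaving out single libraries gave log2 fold changes of 3.98 to 4.90 for Gc, 4.75 to 5.08 for Habp2, 2.81 to 3.21 for Slc17a1, 0.20 to 0.25 for Slc17a2, 0.70 to 0.84 for Slc17a3, 1.04 to 1.56 for Slc10a2, 1.36 to 1.68 for Slc4a4 and -0.15 to 0.18 for Hnf4a. A pseudocount of 0.1 FPKM, which shrinks low genes less by construction, raised Habp2 to 6.02, Slc17a1 to 3.55, Slc17a2 to 1.34, Slc17a3 to 2.63 and Slc10a2 to 2.76.

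Of all tested genes, the most were called without shCdGAP replicate 1 and the fewest without shCON replicate 2, among fits that left out 1 library. Leaving out 1 library at a time gave 1237 to 5373 called of all tested genes (2838 with all 6), 4 to 10 transcription factors (7), 10 to 19 plasma protein genes (16), 8 to 18 tubule genes (12), 2 to 8 bile acid genes (3), 7 to 12 relatives (10) and 2 to 19 neighbours (8). Without both libraries numbered 1 there were 6506 genes, 12 factors, 9 bile acid genes and 22 neighbours. With a mean of at least 5 CPM, which tests fewer genes by construction, 7 of 12 tested plasma protein genes, 6 of 13 tubule genes and 6 of 12 relatives were called. Over all genes it called 1960 of 10330. The cause of the other shifts was not tested. With the replicate number as a block, 2458 genes, 6 factors, 11 plasma protein genes, 14 tubule genes, 3 bile acid genes, 9 relatives and 6 neighbours were called, and apart from the calls given as lost in the text, Fetub, Serpina7 and Ambp (plasma proteins, adjusted p of 0.0617, 0.0603 and 0.0598, limma) lost theirs. Library size scaling gave 1112 higher and 1705 lower genes, against 1337 and 1501. Depth limits Slc17a2, Slc17a3 and Slc10a2 most, with at most 7 reads per shCON library.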

Other observations

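Some neighbours of Hnf4a, Slc10a2 and Slc4a4, named after their values were seen, did not pass the test and differed widely within shCdGAP. Mybl2, a transcription factor of dividing cells 422 kb from Hnf4a, stood at 0.916, 12.9 and 17.2 FPKM in shCdGAP and 12.8, 16.7 and 16.8 FPKM in shCON. Shcbp1, also a gene of dividing cells, 304 kb from Slc10a2, stood at 2.87, 55.6 and 68.2 FPKM in shCdGAP and 17.4, 32.8 and 30.3 FPKM in shCON. Dck, a kinase of nucleoside salvage 104 kb from Slc4a4, stood at 6.83, 21.5 and 23.2 FPKM in shCdGAP and 12.3, 16.3 and 16.7 FPKM in shCON. Each was lowest in replicate 1 of both groups, as Gc was, while Habp2, Slc17a1, Slc4a4 and Hnf4a were highest in replicate 1 of shCdGAP.

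In 3 other genes, also named after their values were seen, replicate 1 of shCdGAP was the highest of the 6 libraries, as it was for Hnf4a. Hist1h1c, a linker histone gene 66.6 kb from the SLC17 cluster, stood at 39.2, 6.92 and 9.44 FPKM in shCdGAP and 5.61, 8.06 and 9.46 FPKM in shCON. Acox2, a peroxisomal oxidase of bile acid synthesis, stood at 39.9, 8.48 and 6.09 FPKM in shCdGAP and 7.21, 7.23 and 6.18 FPKM in shCON. Abcc2, an organic anion export pump, stood at 6.38, 0.689 and 0.665 FPKM in shCdGAP and 2.49, 2.52 and 2.06 FPKM in shCON.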
